A study of Mus musculus with 9 samples.

Results

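Cells labelled as sorted for an Afp reporter on day 7 of embryoid body culture were compared with cells labelled in the same way on day 4, across all genes measured. The comparison used 6 of the 9 arrays of the series, 3 per day. The 3 arrays of day 21 entered the estimate of the spread and the choice of each gene's brightest probe set, and their means are given for a few genes only. All samples came from mouse embryonic stem cells carrying the transgene Afp::GFP, in which the promoter of Afp drives green fluorescent protein. The cells formed aggregates (embryoid bodies) in medium with fetal bovine serum, were grown on gelatin, and were sorted for fluorescence by flow cytometry according to the labels' protocols. The day 4 and day 7 groups share the line and the transgene and differ in the labels by day. The labels do not say how the gate was set on each day, so a difference in gating cannot be told apart from a difference in day. The labels name no clone, culture or batch. Whether arrays of the same day were separate cultures is not stated, and the p-values therefore reflect a spread between these samples that may be technical.

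Genes were the 22180 that have a probe set with exactly 1 gene symbol, out of 34365 probe sets, with the brightest probe set, by its mean over all 9 arrays, taken where a gene had several. Values are log2 signals, so a difference of 1 is a doubling. A gene passed when its limma p, adjusted over all 22180 genes by the Benjamini-Hochberg method, was under 0.05, and "rose" and "fell" are used below only of such genes. Changes are given as day 7 minus day 4, on the log2 scale, with the standard error (SE) of the fit. A gene is called above background on a day when its mean exceeded the 95th percentile of 1088 olfactory receptor genes, 6.01 on day 4 and 5.97 on day 7. Where a day's mean lies below that reference, the fold is one of array signal against a floor.

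Embryoid bodies form an outer layer of endoderm around cells that resemble the epiblast, the layer that gives rise to the embryo itself. The epiblast passes through a primitive streak stage, in which Nodal, Wnt and FGF signals turn on mesoderm and endoderm genes. The outer layer becomes visceral endoderm, an absorptive and secretory epithelium of the yolk sac that takes up proteins by endocytosis, digests them in lysosomes and secretes plasma proteins and lipoproteins. Afp, the gene for alpha-fetoprotein, is one of its known products.

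The labelled gate was checked against the transcript it rests on. Afp read 5.93, 5.62 and 5.62 on the day 4 arrays and 10.68, 10.59 and 10.54 on the day 7 arrays. The transcript that names the sort was thus below the background reference on day 4, and it rose by 4.88 ± 0.11 (SE; adjusted p = 7.37e-09). The reporter itself has no named probe set here. Of 10 visceral endoderm markers, 6 were above background on day 4 and 10 on day 7. On each day 4 of 4 epiblast markers and 4 of 4 definitive endoderm markers were above background, and in each set 1 rose and 2 fell. The sets are not exclusive, since the definitive endoderm set shares a marker with the list for anterior visceral endoderm. All 3 leukocyte markers, both trophoblast markers and both erythroid markers that were measured stayed below background on both days. Of 5 parietal endoderm markers 5 were above background on day 4 and 3 on day 7. Of 5 naive stem cell markers it was 4 and 3, and of 3 neural markers 2 and 3. On each day 2 of 3 nascent mesoderm and 2 of 3 mesenchyme markers were above background. So were 2 of 4 cardiomyocyte, 2 of 4 endothelial and 1 of 3 germ cell markers. Cells of a changing mixture and cells that change their own transcription cannot be told apart in these bulk samples, nor can fewer cells of a type and less RNA per cell.

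Arrays of a day correlated across genes at 0.990 to 0.991 and arrays of different days at 0.966 to 0.971; genes are not independent replicates. No pair of arrays held identical values. Array medians lay between 5.88 and 5.98 over all 9 arrays. The number of arrays limits the precision, and the median SE of a log2 change was 0.131.

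Of the 22180 genes, 2983 passed (13.4%): 1548 were higher on day 7 (6.98%) and 1435 lower (6.47%). Among the 12820 genes above background on at least 1 of the days, 11.4% rose and 10.6% fell. At least a doubling was seen in 454 of the risen genes (2.05% of all) and in 302 of the fallen ones (1.36%). The tail was longer upward, with 103 genes at least 4-fold higher against 59 at least 4-fold lower, and 32 against 10 at 8-fold. A further 1077 of the genes that passed changed by less than 1.5-fold. The median change over all genes was -0.01. In 6630 genes (29.9%) the 3 arrays of a day did not overlap the 3 of the other.

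**Figure D1:**
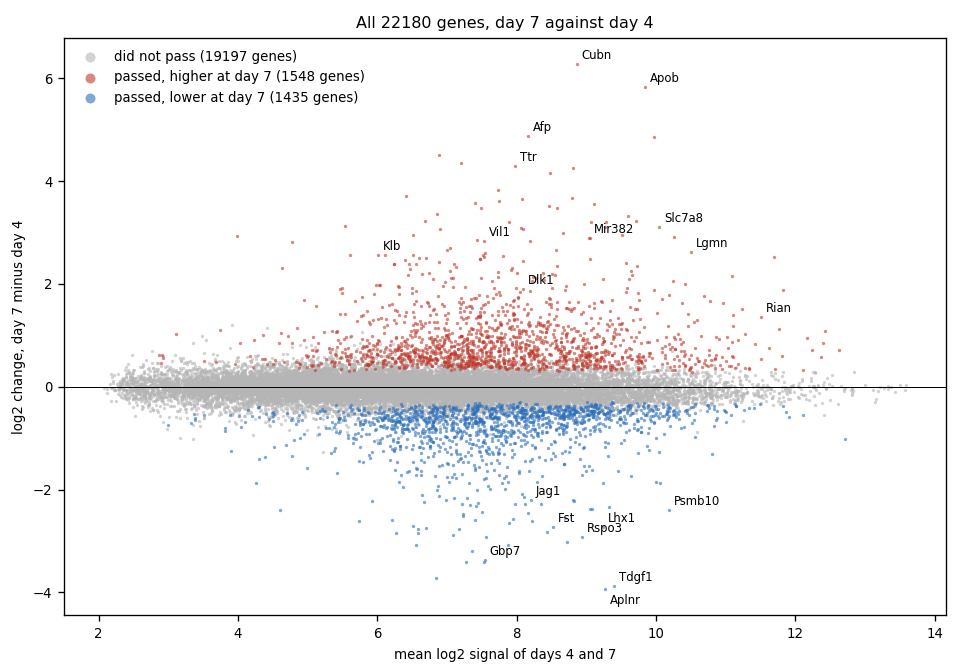
Each point is 1 of the 22180 genes, with the mean log2 signal of days 4 and 7 on the x axis and the log2 change (day 7 minus day 4) on the y axis; red genes rose, blue genes fell and grey genes did not pass. The largest rise, of Cubn, reached 6.28, while the largest labelled fall, of Aplnr, reached -3.93.

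The 20 largest rises were Cubn, Apob, Afp, Slc13a4, Abcc2, Ttr, Rbp4, Dpp4, Muc13, Fgb, Npl, B4galnt2, Apom, Slco4c1, Gramd1b, Habp2, Mttp, Slc34a2, Plg and Ctsh. Cubn, an endocytic receptor for protein and vitamin complexes, went from 5.36, 5.99 and 5.83 to 11.99, 12.07 and 11.95. Its signal was 77.6-fold higher, against a day 4 mean below background. Apob, the structural protein of secreted lipoproteins, was read at 6.69, 7.06 and 7.04 on day 4 and at 12.69, 12.91 and 12.68 on day 7, a 56.8-fold rise from above background. Several others of the 20 belong to the surface or lumen of absorptive epithelia: Dpp4 is a brush border peptidase, Muc13 a membrane mucin and Slc34a2 a phosphate carrier. Npl (+3.68 ± 0.17), which encodes a sialic acid lyase, and B4galnt2 (+3.65 ± 0.14), which adds N-acetylgalactosamine to glycans, were among the largest as well. Of genes above background on both days, Dab2, Tnnc1, Apoc2, Nrk and Reep6 rose by 3.11 to 3.23 and complete the 15 largest there.

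The 20 largest falls were Aplnr, Tdgf1, Gabrb2, Pkd1l1, Ifi27, Gbp7, Gbp4, Gbp3, Oasl2, Parp12, Rspo3, Fabp7, Itga8, Tll1, Gbp8, Dact1, Limch1, Samd3, Rtp4 and Lhx1. Aplnr, the apelin receptor of early mesoderm, went from 11.10, 11.36 and 11.25 to 7.05, 7.46 and 7.40 (15.3-fold lower). Tdgf1, the Nodal co-receptor also called Cripto, went from 11.27, 11.35 and 11.40 to 7.47, 7.46 and 7.45. Both transcripts were among the brighter ones on day 4 and remained above background on day 7. Gabrb2, which encodes a GABA-A receptor chain, dropped from a mean of 8.70 to 4.98 and Pkd1l1, a polycystin-like membrane protein of the ciliated embryonic node, from 9.24 to 5.83; these 2 means lay below the reference on day 7. Lhx1, a homeobox regulator of streak and anterior endoderm, fell by 2.72 ± 0.18 to 7.87. The guanylate-binding proteins Gbp3, Gbp4, Gbp7 and Gbp8 and the genes Ifi27, Oasl2, Parp12 and Rtp4 are interferon-induced, and 8 of the 20 largest falls were thus of this kind.

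Most measured genes of a block on chromosome 12 rose. It lies between Dlk1 and Dio3, an imprinted interval whose maternal copy produces long non-coding RNAs (Meg3 and Rian), small nucleolar RNAs and a large microRNA cluster, while Dlk1 and Dio3 are read from the paternal copy. This interval was singled out after its values were seen. The probe sets on microRNA genes lie on hairpins and read any RNA that covers them, including the long host transcript, so they do not measure mature microRNAs. Of 55 interval genes measured, 45 rose and the other 10 did not pass, with a median change of +1.56, while 6.98% of all genes rose. By kind, the risen genes were 37 of 43 microRNA genes, 5 of 6 small nucleolar RNA genes, 2 of 4 long non-coding genes and 1 of 2 protein-coding genes. Of the 20 nearest measured genes, 10 on each side of the interval, 2 passed and both were lower (Degs2 and Wars), calls that were both lost without day 4 array 1 or 3 or day 7 array 1; that of Wars was also lost without day 7 array 2.

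The mature arms below come from RefSeq (GRCm38.p6), with the seed, bases 2 to 8, in capitals. The 37 risen microRNA genes give 70 arms with 64 seeds, and the 12 arms that share a seed with another are shown first, in pairs. The arms of Mir154, Mir382 and Mir376a follow because these genes had 3 of the larger rises of the interval. The 41 measured hairpins listed there lie at chr12:109571990-109743236, all of them within the interval.
miR-370-5p: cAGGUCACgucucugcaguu
miR-1193-3p: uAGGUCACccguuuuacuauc
miR-379-3p: uAUGUAACaugguccacuaacu
miR-411-3p: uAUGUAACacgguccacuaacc
miR-379-5p: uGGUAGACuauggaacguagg
miR-1193-5p: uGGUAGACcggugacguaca
miR-1197-5p: cGGUUGACcaugguguguacg
miR-758-5p: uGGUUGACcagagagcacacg
miR-453: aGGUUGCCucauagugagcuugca
miR-496a-5p: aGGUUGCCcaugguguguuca
miR-376c-5p: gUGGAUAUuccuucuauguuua
miR-376b-5p: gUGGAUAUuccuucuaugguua
miR-154-5p: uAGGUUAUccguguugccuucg
miR-154-3p: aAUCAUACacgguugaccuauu
miR-382-5p: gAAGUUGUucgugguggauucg
miR-382-3p: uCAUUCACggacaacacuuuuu
miR-376a-5p: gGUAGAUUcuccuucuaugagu
miR-376a-3p: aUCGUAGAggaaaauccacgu

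Dlk1, a membrane relative of the Notch ligands, read 7.29, 6.81 and 7.29 on day 4 and 9.03, 9.08 and 9.01 on day 7 (+1.91 ± 0.15; adjusted p = 1.7e-05). Rian, the host transcript of the small nucleolar RNAs, read 10.88, 10.80 and 10.80, then 12.19, 12.27 and 12.08. Meg3, at the start of the non-coding block, rose less, by 0.65 ± 0.10 from a mean of 6.79. In each of these the day 7 arrays lay wholly above the day 4 arrays, as they did in 51 of the 55 interval genes, against 29.9% of all genes without overlap in either direction. The small nucleolar RNA DQ267102 rose by 2.09 ± 0.12 and AF357355 by 2.05 ± 0.13, to means of 10.66 and 11.27.

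Among the microRNA genes, Mir154 went from 4.36, 5.88 and 4.97 to 8.45, 8.20 and 8.23, the largest change of the interval (+3.23 ± 0.37). Mir382 went from 7.79, 7.36 and 7.62 to 10.69, 10.70 and 10.03, and Mir411 from a mean of 5.04 to 7.98. Mir376a stayed below background on both days despite a change of +2.93, with day 7 values of 5.92, 5.76 and 4.69. The same held for other risen microRNA genes, among them 2 of the seed pairs. Mir376c had means of 3.47 on day 4 and 5.78 on day 7, and Mir1197 of 3.20 and 4.30. Such changes lie within the floor of the array signal. The brightest on day 7 were Mir329 (11.61), Mir341 (11.57) and Mir493 (11.07), which rose by 1.67 to 1.77. Since only risen genes gave the seeds above, the direction of the pairs is part of their choice. Their changes were +1.97 (Mir370) and +1.42 (Mir1193), +2.51 (Mir379) and +2.95 (Mir411), and again Mir379 and Mir1193 for the third pair. The other pairs were Mir1197 (+1.10) and Mir758 (+1.56), Mir453 (+1.88) and Mir496a (+1.82), and Mir376c (+2.31) and Mir376b (+2.56). The call of Mir376b was lost without day 4 array 3 or any day 7 array, that of Mir1193 without day 4 array 1 or day 7 array 1, and that of Mir1197 without day 4 array 1 or 3. The 6 microRNA genes that did not pass were Mir673, Mir3070a, Mir882, Mir299a, Mir666 and Mir541. Mir673, near the Meg3 end, was bright on both days at 9.02 and 9.03. Dio3 (4.87 on day 7) stayed below background, and its antisense neighbour Dio3os read 5.90 and 6.19 without passing. On day 21, the mean of Rian was 10.95, of Mir382 8.13, of Mir154 5.97 and of Dlk1 8.80. Over all interval genes the median of day 21 minus day 4 was +0.08. For the microRNA genes of the interval it was +0.02 and for its small nucleolar RNA genes -0.23.

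Outside this interval, 11 of 435 measured microRNA genes rose and 7 fell, smaller shares than the 6.98% and 6.47% of all genes. With those of the interval, 48 of the 55 microRNA genes that passed were higher on day 7. Mirlet7d rose from a mean of 4.84 to 6.24. Mir34a, a p53 target, fell from 6.64 to 5.85, a call that was lost without day 4 array 2 or 3. Small nucleolar RNA genes elsewhere passed in 5 of 75 cases, 3 of them higher, while 13.4% of all genes passed.

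**Figure D2:**
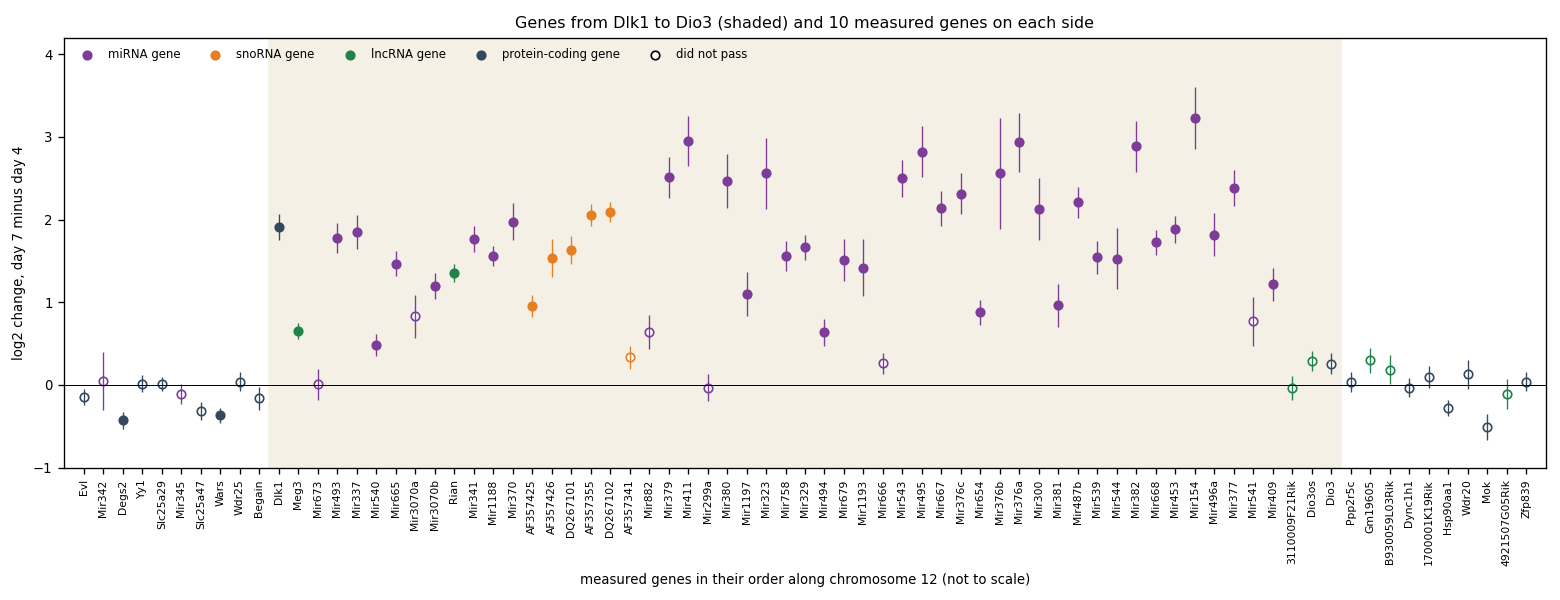
Log2 change (day 7 minus day 4) with its SE for the 55 measured genes from Dlk1 to Dio3 (shaded) and 10 measured genes on each side, in their order along chromosome 12; open circles did not pass. Rises begin at Dlk1 (+1.91), reach +3.23 at Mir154 and end after Mir409 (+1.22), while the flanking genes lie between -0.51 and +0.30.

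The gene lists described next number 81 and hold 1912 distinct measured genes. They were written with earlier results of these data known, so their counts describe these samples and are no independent evidence. A gene can stand in several lists. Each count is to be read beside the shares of all genes, 6.98% higher and 6.47% lower. Among genes above background on at least 1 day these shares were 11.4% and 10.6%. A count near them says little about its list.

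**Figure D3:**
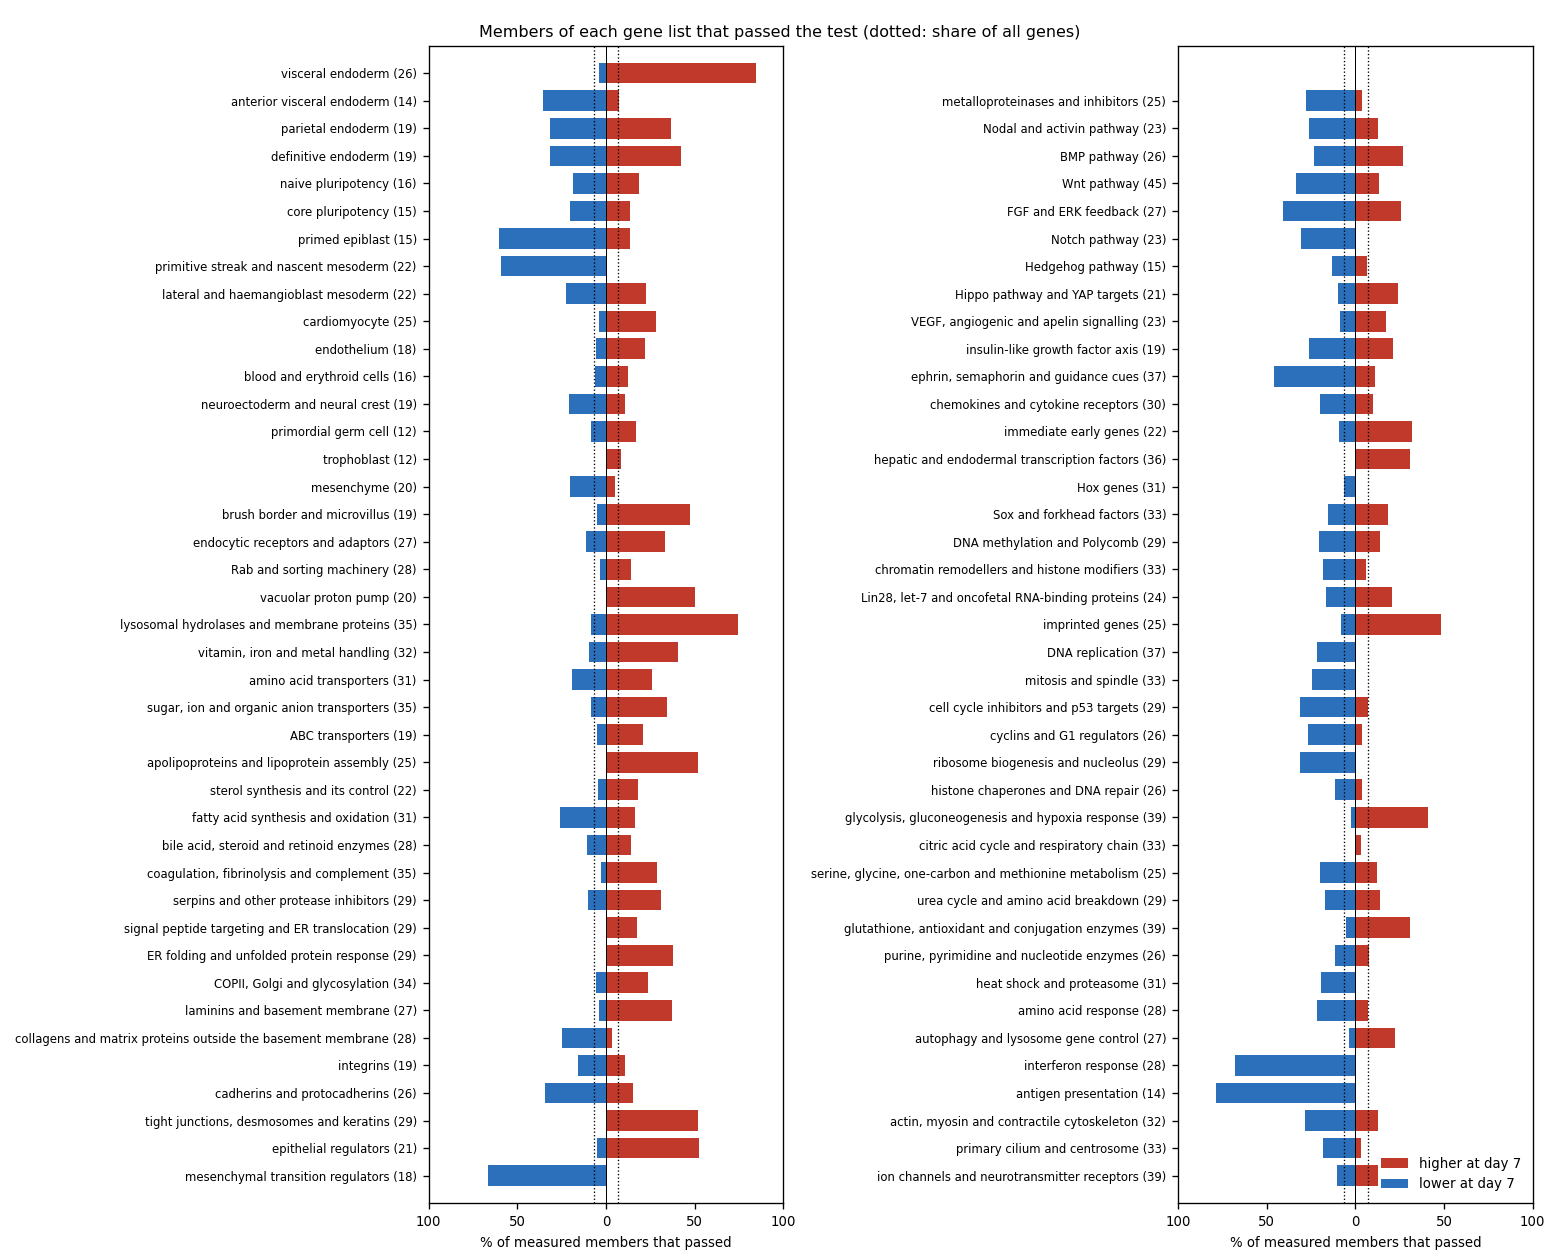
Each bar gives the share of a list's measured members (number in brackets) that rose (red, to the right) or fell (blue, to the left); the dotted lines mark the shares of all genes, 6.98% higher and 6.47% lower. Lysosomal, apical and junction lists extend to the right, and mesenchymal transition, streak, guidance and interferon lists to the left.

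Of 19 brush border and microvillus genes of the apical surface, 9 rose, 1 fell and the other 9 did not pass, with a median change of +0.45. On both days 8 of the 19 were below background, so much of this list was not detected. Vil1, the actin-bundling protein villin, went from 5.93, 5.95 and 6.46 to 9.21, 8.71 and 8.89. Clic5 (+2.24 ± 0.11), Podxl (+2.15 ± 0.12), Cdhr2 (+1.67) and Pls1 (+1.65), which build or anchor microvilli, rose as well. Among the linkers between membrane and actin, Ezr and Rdx rose by 1.12 and 0.83, while Msn, their relative in non-epithelial cells, fell to a mean of 9.50 on day 7.

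Carriers for specific solutes included some of the larger changes. Slc7a8, a carrier of neutral amino acids, read 8.22, 8.47 and 8.80 on day 4 and 11.56, 11.65 and 11.57 on day 7, an 8.57-fold rise. Slc7a9, the apical cystine carrier, and Slc7a7, its basolateral counterpart, rose by 1.98 and 1.10. Of the 31 amino acid carriers, 8 rose and 6 fell, and those that fell included the glutamate carrier Slc1a3 (-1.26) and Slc38a4 (-0.98). The fallen count was 3 without day 4 array 2, without day 7 array 1 or without day 7 array 3. Of 35 sugar, ion and organic anion carriers, 12 rose and 3 fell. The sulfate carrier Slc13a4 went from 7.34, 7.78 and 7.52 to 12.42, 12.35 and 12.43. Slco4c1 and Slc34a2, for organic anions and phosphate, were below background on day 4 at means of 5.61 and 5.75 and reached 9.19 and 9.23. Slc4a4, a bicarbonate cotransporter, fell by 1.77. Abcc2 and Abcc4, export pumps for conjugates, rose by 4.35 and 2.14, and Abcc1 fell by 0.72.

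Vitamin, iron and metal handling genes rose in 13 of 32 cases and fell in 3. Atp7b, the copper pump of hepatocytes, read 6.51, 6.51 and 6.59, then 9.07, 9.09 and 9.06. The zinc carriers Slc39a4, Slc39a5 and Slc39a8 rose by 1.97, 1.73 and 1.30, the folate receptor Folr1 by 1.94 and the ascorbate carrier Slc23a1 by 1.76. The iron exporter Slc40a1 rose from 7.19, 6.32 and 6.90 to 8.88, 8.46 and 8.45. Tfrc, the transferrin receptor through which iron enters, fell from 7.46, 7.13 and 7.41 to 6.53, 6.40 and 6.10. Exporter and importer of iron thus changed in opposite directions, with no overlap between the days in either.

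Lysosomal genes had the largest share of risen members of any list apart from visceral endoderm. Of 35 hydrolases and membrane proteins, all above background on each day, 26 rose and 3 fell, with a median of +0.59. Ctsh, a cathepsin with aminopeptidase activity, went from 7.75, 7.86 and 8.21 to 11.39, 11.19 and 11.18. Lgmn, the asparaginyl endopeptidase legumain, went from 9.14, 8.98 and 9.44 to 11.86, 11.73 and 11.84. Ctsl, Ctsz and Ctsc rose by 1.70, 1.52 and 1.25, and the cholesterol genes Npc1 and Lipa by 1.24 each. The members that fell were Psap, the precursor of sphingolipid activators (-0.65), the sulfatase Arsb (-0.59, a call lost when its probe sets were averaged) and Gusb, beta-glucuronidase (-0.53). Subunits of the proton pump that acidifies these organelles rose in 10 of 20 cases, and the other 10 did not pass. Atp6v0a1 led them with +1.07 ± 0.12. Of 27 genes of autophagy and its control 6 rose, among them Gabarapl1 (+1.03); the risen count was 3 without day 4 array 1, day 4 array 2 or day 7 array 1. Of 27 endocytic receptors and adaptors 9 rose, including Lrp2 (+1.54) beside Cubn, and 3 fell. Cd36, a fatty acid and lipoprotein scavenger receptor, was among the latter and dropped from 7.04 to 4.43. Rab and sorting genes passed in 5 of 28 cases, with Rab11a of recycling endosomes (+0.87) and Rab25 (+0.89) higher.

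**Figure D4:**
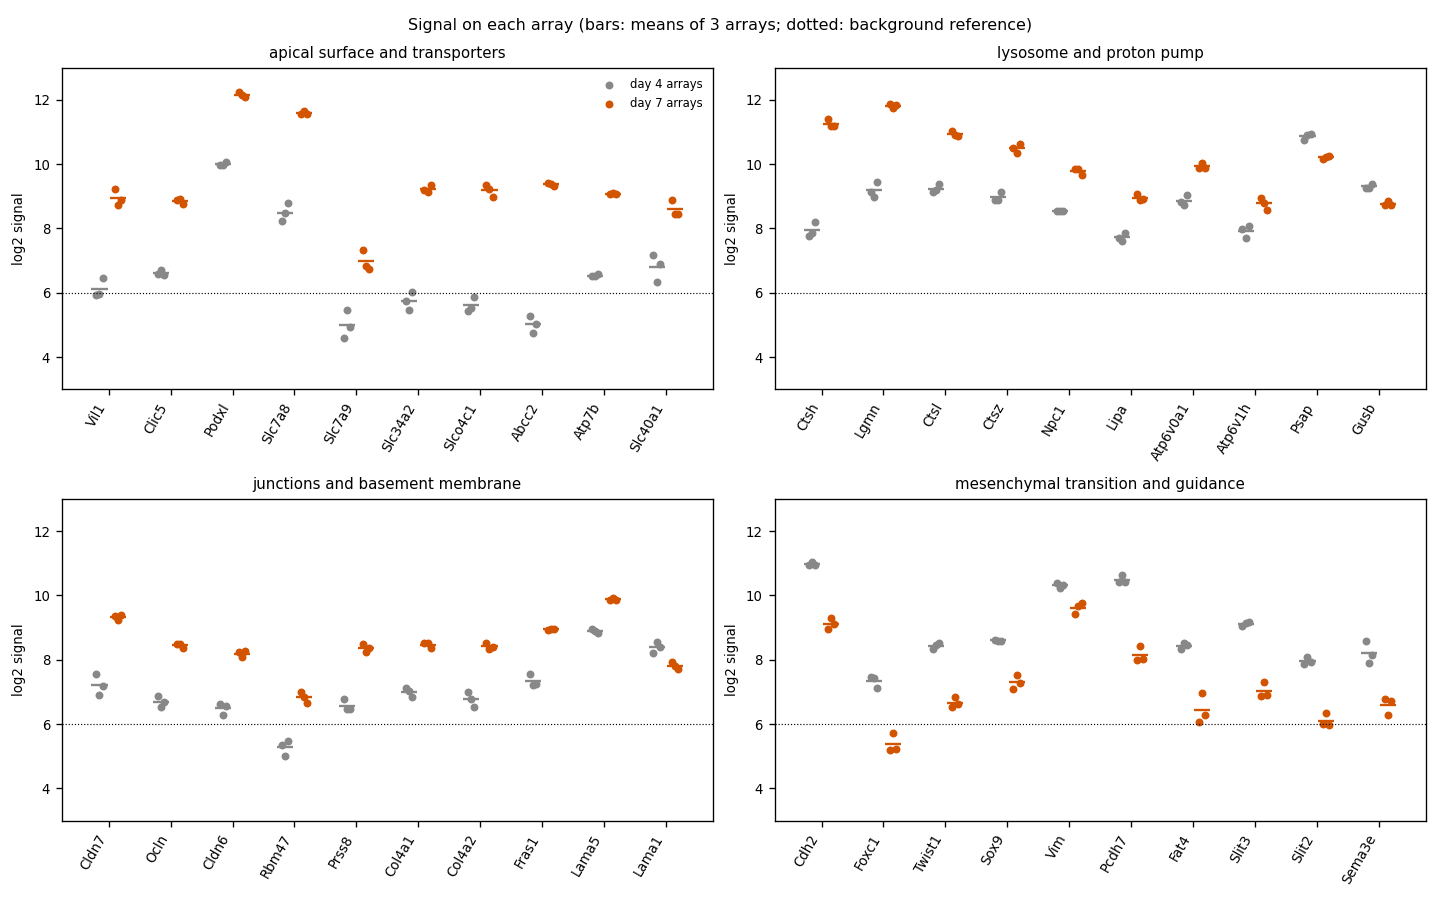
Log2 signal on each of the 3 day 4 arrays (grey) and 3 day 7 arrays (orange) for 40 genes in 4 groups, with bars at the means and a dotted line at the day 4 background reference of 6.01. Every plotted gene has arrays that do not overlap between the days; Slc7a9, Slc34a2, Slco4c1, Abcc2 and Rbm47 start below the reference and Foxc1 ends below it.

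Secreted plasma proteins rose in part. Of 25 apolipoprotein and lipoprotein assembly genes 13 rose, among them Mttp (+3.48 ± 0.11), which loads lipid onto Apob. Coagulation, fibrinolysis and complement genes rose in 10 of 35 cases and 1 fell (2 without day 4 array 2 or day 7 array 2). The fibrinogen chain Fgb went from 4.59, 4.38 and 4.69 to 8.40, 8.25 and 8.14, and plasminogen (Plg) from a mean of 5.18 to 8.54. F2, prothrombin, rose by 2.39. F5, a cofactor of the same cascade, moved the other way, from 9.80, 9.82 and 9.81 to 8.32, 8.44 and 8.04. Of 29 protease inhibitors 9 rose, led by Serpinf2 (+2.56), Spink1 (+2.52) and Ambp (+2.40), and 3 fell. The fallen count was 1 without any 1 of the day 4 arrays. Of the 29 inhibitors 13 were below background on both days. Alb, the serum albumin gene of later liver, stayed below background with means of 5.29 and 5.31.

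In the list for protein folding in the endoplasmic reticulum and the unfolded protein response, 11 of 29 genes rose and the others did not pass. The regulators Creb3l1 and Xbp1 rose by 1.68 ± 0.17 and 1.07 ± 0.10, the sensor Atf6 by 0.91 and the disulfide isomerase Pdia5 by 1.18. Hspa5, the chaperone BiP, read 9.43, 9.27 and 9.35 on day 4 and 9.44, 9.39 and 9.41 on day 7 (+0.06 ± 0.09, did not pass). The count of 11 was 5 to 7 when day 4 array 1 or 2 or any of the 3 day 7 arrays was left out. Vesicle coat and Golgi genes rose in 8 of 34 cases, among them Man1a (+1.46), and the sialyltransferase St6gal1 fell by 1.63; the risen count was 3 without day 7 array 1, 4 without day 4 array 2 and 5 without day 7 array 2. In the list for transport of new proteins into the endoplasmic reticulum 5 of 29 rose, by 0.35 (Ddost) to 0.48 (Ssr4), and all 5 calls were lost without day 4 array 2 or without day 7 array 1; 1 to 3 held without day 4 array 1 or the other day 7 arrays.

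Of 29 tight junction, desmosome and keratin genes, 15 rose and the other 14 did not pass, with a median of +0.52. The claudin Cldn7 went from 7.56, 6.90 and 7.18 to 9.37, 9.25 and 9.38, and occludin (Ocln) from 6.87, 6.54 and 6.69 to 8.50, 8.49 and 8.37. Cldn6 (+1.70), Cldn2 (+1.41), the polarity protein Crb3 (+1.27) and the desmosomal Dsg2 (+1.17) moved likewise. Of 21 epithelial regulators 11 rose, including the splicing factors Rbm47 (+1.55), Esrp1 (+1.10) and Esrp2 (+1.01) and the surface protease Prss8 (+1.79). Klf5 fell by 0.78. The adherens gene Cdh1 was bright on all arrays (10.62 to 11.37) and did not pass (+0.38 ± 0.16, adjusted p = 0.173), and Epcam (+0.52 ± 0.16) did not pass either.

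Basement membrane genes rose in 10 of 27 cases, with 1 fall. The collagen IV chains Col4a1 and Col4a2 rose by 1.48 ± 0.13 and 1.65 ± 0.15, Fras1 by 1.61, and the laminin chain Lama5 by 0.99. Lama1, the early embryonic laminin chain, fell from 8.22, 8.56 and 8.39 to 7.92, 7.79 and 7.72 (-0.58 ± 0.15), a call that held without day 4 array 1 and was lost without any other of the 6 arrays. Outside the basement membrane, matrix genes fell in 7 of 28 cases and rose in 1; without day 7 array 1 the fallen count was 4. Bgn, the proteoglycan biglycan, fell from a mean of 8.38 to 6.20, while fibronectin (Fn1, -1.02) and versican (Vcan, -1.16) fell as well. The single riser, P4ha1, is a collagen hydroxylase that also belongs to the hypoxia list.

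Of 18 regulators and products of the epithelial to mesenchymal transition, 12 fell and the other 6 did not pass, with a median of -0.81. Cdh2, N-cadherin, went from 10.96, 11.05 and 10.96 to 8.95, 9.30 and 9.11. The transcription factors Foxc1, Twist1 and Sox9 fell by 1.95, 1.77 and 1.30, and Snai1 by 0.81. A further list of 20 mesenchyme genes had 1 rise, 4 falls and 15 genes that did not pass (median -0.18). Twist1 and at least 1 more of these fallen genes also stand in the transition list. Without day 7 array 1 the falls of the mesenchyme list numbered 2. Among 26 cadherins and protocadherins 9 fell and 4 rose. Pcdh7 fell from a mean of 10.49 to 8.15, Pcdh18 by 2.29 and the giant cadherin Fat4 by 2.01, while Cdh6, a cadherin of renal and endodermal epithelia, rose by 1.99 ± 0.12. The risen count was 2 without day 7 array 2 or 3.

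Guidance molecules, ligands and receptors that steer migrating cells and axons, showed 17 falls and 4 rises among 37 genes (median -0.38). Slit3 went from 9.06, 9.13 and 9.17 to 6.88, 7.32 and 6.91, and Slit2 fell by 1.85. Their receptors Robo1 and Robo2 fell by 0.66 and 1.07, as did the semaphorins Sema3e (-1.61) and Sema6d (-1.18) and the netrin Ntn1 (-1.13). The ephrin ligands differed: Efna1 rose by 1.23 and Efnb1 by 0.88, and Efna2 and Efna3 fell by 0.95 and 0.93. Among integrins, Itga8 dropped from 8.52 to 5.64 and Itga1 by 1.10, and Itgb4, the hemidesmosome chain, rose by 0.71. Of 25 metalloproteinases and inhibitors 7 fell, led by Adam9 (-1.64) and Adam19 (-1.41), and Reck, a membrane inhibitor, rose by 0.88.

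In the FGF list of 27 genes, 7 rose and 11 fell. The ligands Fgf8, Fgf5, Fgf10 and Fgf3 fell, Fgf8 from 7.73, 7.45 and 7.89 to 6.02, 6.02 and 5.82 and Fgf5 from 8.60, 8.60 and 8.70 to 7.11, 6.98 and 7.15. The call of Fgf3 held without day 4 array 3 and was lost without any other of the 6 arrays, and that of Fgf10 was lost when its probe sets were averaged. The receptors Fgfr2, Fgfr3 and Fgfr4 rose by 1.72, 2.19 and 1.68. Fgfr3 went from 5.02, 5.84 and 5.76 to 7.69, 7.69 and 7.82. Klb, the co-receptor through which endocrine FGFs act on hepatocytes, rose from a mean of 4.72 to 7.29. Fgfr1, the main receptor of the epiblast and mesoderm, was 9.62 on day 4 and 9.09 on day 7 and did not pass (adjusted p = 0.0658). Of the feedback genes that ERK activity switches on, Dusp6 fell from 10.93, 10.87 and 10.97 to 9.23, 8.86 and 9.16, and Spry2 and Etv4 fell by 0.92 and 0.69. Spry4 and Etv5 did not pass.

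In the Wnt list of 45 genes, 15 fell and 6 rose. Rspo3, a secreted enhancer of Wnt signals, went from 10.32, 10.47 and 10.40 to 7.10, 7.74 and 7.57. Lef1, a nuclear effector and target, went from 9.84, 10.20 and 9.89 to 7.36, 7.45 and 7.45. The targets Sp5 and Axin2 fell by 1.07 and 0.89 and the ligands Wnt5a and Wnt3 by 1.57 and 0.97. Receptors were divided: Fzd2, Fzd7, Fzd8 and Fzd10 fell, by 0.52 (Fzd7) to 0.82 (Fzd8) among the 3 above background on both days, and Fzd4 and the co-receptor Lrp5 rose by 1.32 and 0.85. The effectors Tcf7l2 (+0.88) and Tcf7l1 (-0.72) moved in opposite directions, as did the antagonists Sfrp5 (+0.76) and Sfrp1 (-1.05).

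In the BMP list, 7 of 26 rose and 6 fell. Bmp4 went from 9.18, 9.21 and 9.20 to 7.84, 7.88 and 7.63, and Bmp7 from 9.84, 10.04 and 9.93 to 7.76, 7.81 and 7.59. The antagonists Nog and Chrd fell by 1.06 and 0.70, the latter call being lost without day 4 array 2 or 3 or day 7 array 3. Bmp6 rose by 1.45 ± 0.18, and the target genes Id2 and Id1 rose, Id2 from a mean of 6.13 to 7.73 and Id1 by 0.75, the inhibitory Smad6 by 1.03 and Smad9 by 2.29 ± 0.25.

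Of 23 genes of the Nodal and activin pathway 6 fell and 3 rose; the fallen count was 3 in every fit that left out day 4 array 1 or 3 or any day 7 array. Follistatin (Fst), which binds activin, went from 9.92, 9.90 and 9.81 to 6.90, 7.51 and 7.06. The 2 co-receptors of Nodal differed, since Tdgf1 fell by 3.88 and Cfc1, also called Cryptic, rose from 7.86, 8.07 and 8.22 to 9.67, 9.32 and 9.57. Notch pathway genes fell in 7 of 23 cases and the others did not pass. The ligand Jag1 went from 9.10, 9.33 and 9.48 to 6.93, 7.35 and 7.01, the receptor Notch1 from a mean of 8.92 to 7.47, and the target Hes1 fell by 0.66. Of the Hedgehog genes, Ihh rose by 0.86 and the co-receptor Boc fell by 1.05. Apela, the second ligand of the apelin receptor, rose from 7.82, 7.19 and 7.33 to 8.80, 8.95 and 8.77 in the samples in which that receptor fell. Vegfa, the vascular growth factor, rose by 1.82 ± 0.09. In the insulin-like growth factor list, Igf2 rose by 0.99 ± 0.09 and Igfbp5 by 2.61, and Igfbp3 fell by 1.43.

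**Figure D5:**
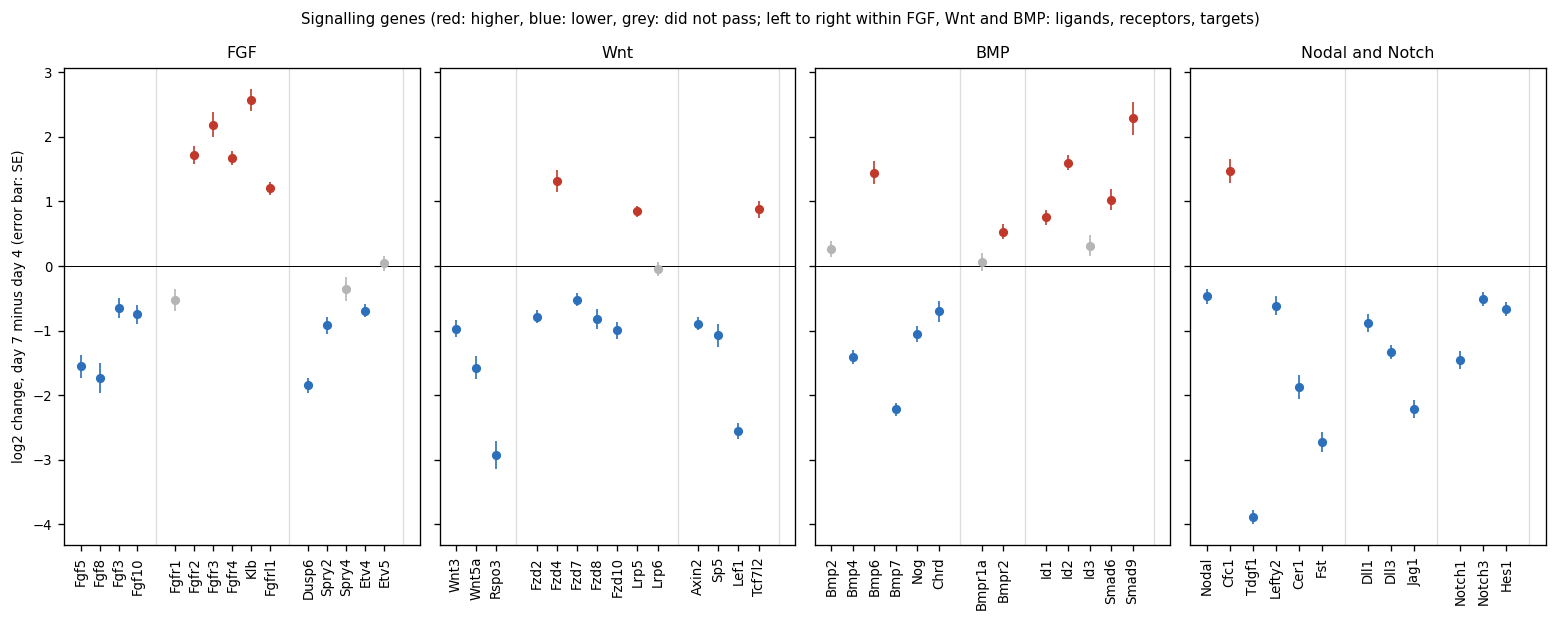
Log2 change (day 7 minus day 4, error bars SE) of genes of the FGF, Wnt, BMP, Nodal and Notch pathways, grouped within the first 3 panels as ligands with their antagonists, receptors, and targets or effectors; red genes rose, blue genes fell and grey genes did not pass. The FGF receptors and co-receptors sit between +1.20 (Fgfrl1) and +2.57 (Klb) except Fgfr1 (-0.53), and the plotted FGF ligands between -1.74 (Fgf8) and -0.65 (Fgf3).

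Among transcription factors, 11 of 36 hepatic and endodermal ones rose and the others did not pass. Tfec, of the family that controls lysosome genes, went from 4.73, 5.59 and 5.79 to 8.51, 8.42 and 8.37. Maf rose by 2.70, Hnf4a by 2.66 and Foxa3 by 1.67. Gata6 (7.95 and 7.98) and Foxa2 (8.22 and 8.58) did not pass. Tfcp2l1, known both from naive stem cells and from transporting epithelia, went from 6.64, 6.28 and 6.65 to 9.52, 9.81 and 9.47, whereas Nanog fell from 8.83, 8.30 and 8.63 to 7.53, 7.73 and 7.40. Pou5f1 did not pass, at means of 7.14 and 7.04, and Sox2 rose by 1.35 ± 0.20. Esrrb, another naive factor, was below background on both days. The pluripotency lists, with 3 rises and 3 falls of 16 and 2 rises and 3 falls of 15, thus had no common direction. The streak list did: 13 of 22 fell and the other 9 did not pass, with Eomes going from 10.22, 10.34 and 10.24 to 8.05, 7.94 and 7.69 and Mixl1 from a mean of 8.70 to 6.10. In the primed epiblast list 9 of 15 fell and 2 rose.

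Few Hox genes were detected: 3 of 31 were above background on day 4 and 4 on day 7. Those that passed were Hoxb1 (-1.28) and Hoxb2 (-0.65), the latter call being lost without any array but day 4 array 1. They make up 6.45% of the list, beside 6.47% of all genes that fell. Of 25 imprinted genes in a list that spans several chromosomes, 12 rose and 2 fell, with a median of +0.37. Besides Dlk1 these included Airn (2.83-fold), the antisense RNA over Igf2r, the growth inhibitor Cdkn1c (+0.98 ± 0.12), Sgce (+0.97) and Peg3 (+0.85). The falls were Nnat (-0.86) and Slc38a4 (-0.98); without day 7 array 2 they numbered 4. Dnmt3b rose by 0.70 ± 0.13 while Dnmt3a fell by 0.53. Of 29 DNA methylation and Polycomb genes 4 rose and 6 fell, and the fallen count was 3 without day 4 array 2 or 3 or day 7 array 1 or 3. The oncofetal RNA-binding protein Lin28a rose by 0.57 ± 0.10 and Hmga2 fell by 1.12. Of 22 immediate early genes 7 rose, led by Jun (from 8.96, 9.37 and 9.41 to 10.41, 10.40 and 10.40) and Klf6 (+0.93), and Myc fell by 0.93.

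Of 37 DNA replication genes 8 fell and the other 29 did not pass, with a median of -0.27; the largest fall was that of Gins1 (-0.69). Of 33 mitosis genes 8 fell and 25 did not pass, with a median of -0.25, and this count was 4 or 5 whichever array was left out. Mki67, a marker of cycling cells, read 10.80, 10.85 and 10.61 on day 4 and 10.56, 10.75 and 10.67 on day 7 and did not pass. The larger changes were in G1 regulators: Ccnd1 went from 9.24, 9.19 and 9.26 to 7.64, 7.57 and 7.29, and Cdk6 fell by 1.27. Cell cycle inhibitors and p53 targets fell in 9 of 29 cases, including Plk2 (-1.22) and Pmaip1 (-1.01). Ribosome biogenesis genes fell in 9 of 29 cases (median -0.26), including Utp20 (-0.75) and Dkc1 (-0.71); without day 4 array 3 the count was 5. In these division and ribosome lists all or nearly all members were above background on both days.

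Of 39 genes of sugar metabolism and the response to low oxygen, 16 rose, 1 fell and 22 did not pass, with a median of +0.23. Pgk1, a glycolytic kinase, went from 9.89, 9.84 and 10.01 to 11.27, 11.07 and 11.20. Bnip3, a mitochondrial target of the hypoxia factor, went from 5.88, 5.71 and 5.91 to 7.41, 7.38 and 7.43, and P4ha1 from 6.98, 7.11 and 7.26 to 9.09, 8.90 and 8.90. Egln1 and Egln3, the oxygen sensors that this factor also induces, rose by 0.97 and 0.80, and the glucose carriers Slc2a1 and Slc2a3 by 1.08 and 1.12. Ldhb fell by 0.58. The list of the citric acid cycle and respiratory chain stood apart from this, with a median of +0.01 and 1 of 33 genes passing (Cox7a1, a call lost without any 1 of the 6 arrays).

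Amino acid and nucleotide enzymes moved individually. Gldc, the first enzyme of glycine cleavage, went from 8.25, 8.16 and 8.18 to 10.33, 10.32 and 10.21. Cth, which makes cysteine from cystathionine, went from a mean of 8.01 to 6.22, 6.25 and 6.23. Glutamine synthetase (Glul) rose from a mean of 10.48 to 11.98, and Fah, the last enzyme of tyrosine breakdown, fell by 1.19. Uridine phosphorylase (Upp1) fell from a mean of 9.40 to 6.94, the largest change among 26 nucleotide enzymes. Glutathione, antioxidant and conjugation genes rose in 12 of 39 cases, with Gpx3 (+1.57), Gsr (+1.21) and Gclm (+0.87) among the risen. Fatty acid genes fell in 8 of 31 cases, among them the desaturases Fads1 (-0.80) and Fads2 (-0.59), and rose in 5, among them Me1 (+1.07) and Scd1 (+0.75). The fallen count was 5 without day 4 array 2 or 3 or day 7 array 1 or 3. Sterol synthesis genes rose in 4 of 22 cases, with Stard4 (+1.06) and Insig1 (+0.83) ahead.

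Proteasome genes split by type. The subunits of the immunoproteasome Psmb8 (-2.15), Psmb9 (-2.29) and Psmb10 (-2.40) fell, Psmb10 from 11.30, 11.34 and 11.51 to 9.08, 8.84 and 9.04. Their constitutive counterparts Psmb6, Psmb7 and Psmb5 did not pass, with changes of -0.15 ± 0.12, -0.21 ± 0.09 and 0.00 ± 0.11; these 3 are named after their values were seen. In the antigen presentation list 11 of 14 fell, among them Erap1 (-2.61) and Tap1 (-1.68), and in the interferon list 19 of 28.

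Markers of other cell types were read beside these changes. Of 25 cardiomyocyte genes 7 rose and 1 fell. Tnnc1, troponin C of slow muscle, went from 8.25, 7.53 and 7.24 to 11.06, 10.72 and 10.89 and Tnnt2 rose by 1.26, while 9 members, including Myh6, Actn2, Myl2 and Nppa, were below background on both days. The summed linear signal of the list was 3363 to 4229 on the day 4 arrays and 5041 to 5384 on the day 7 arrays. In linear signal Tnnc1 alone rose by as much as this sum, so the sum does not show a rise across the list. The other 17 members did not pass, and the median change of the list was +0.15. For the mesenchymal transition list the summed signal was 16610 to 18093 on day 4 and 8108 to 9566 on day 7. For the streak list it was 4916 to 5411 and 1766 to 1837. Of 18 endothelial genes 4 rose and 1 fell; the risen count was 2 without any 1 array except day 7 array 1. Pecam1, an adhesion molecule of endothelial cells, rose by 0.59. The call of Kdr, a VEGF receptor (-0.81), was lost without day 4 array 2 or 3 or day 7 array 1 or 3. The list summed to 1698 to 2100 on day 4 and 1929 to 2029 on day 7, with 9 genes below background on both days, Tek and Tie1 among them. Of 16 blood genes 13 were below background on both days. How far the falls in mesenchymal transition, streak and guidance genes reflect fewer such cells in the gate was not tested.

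The proximal promoters of 2 of the genes with the largest changes are shown, since motif matches in such windows can be counted over all genes. They come from RefSeq (GRCm38.p6). The Afp window lies at chr5:90490464-90490763 on the plus strand, around the start of the gene, with a match to GTTAAT, a half-site of the liver factor HNF1, in capitals.
Afp: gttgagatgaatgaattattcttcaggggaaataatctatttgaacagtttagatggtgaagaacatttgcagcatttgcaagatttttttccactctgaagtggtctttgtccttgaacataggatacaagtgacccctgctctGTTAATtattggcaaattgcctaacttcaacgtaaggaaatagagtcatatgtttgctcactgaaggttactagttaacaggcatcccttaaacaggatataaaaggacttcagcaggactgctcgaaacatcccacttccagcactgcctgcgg
The Gbp7 window lies at chr3:142530086-142530385 on the plus strand, with a match to the core of the interferon-stimulated response element (GAAA, any 2 bases, GAAA) on the opposite strand in capitals.
Gbp7: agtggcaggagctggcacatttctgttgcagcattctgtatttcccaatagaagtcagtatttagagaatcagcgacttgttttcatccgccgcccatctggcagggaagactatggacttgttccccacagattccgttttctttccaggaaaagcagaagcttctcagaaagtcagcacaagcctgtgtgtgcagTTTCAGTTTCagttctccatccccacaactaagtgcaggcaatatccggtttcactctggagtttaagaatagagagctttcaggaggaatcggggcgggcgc
Matches were counted on both strands in windows of this length, and a gene counted when any of its windows held one. GTTAAT was found in 4 of the 16 genes with a window among the 20 largest rises (Afp, Muc13, Fgb and Habp2), in 1 of 14 among the 20 largest falls, and in 7.46% of 16990 measured genes. The response element core was found in 3 of 14 among the falls (Gbp7, Gbp3 and Tll1), in 2 of 16 among the rises and in 3.87% of measured genes. A match is a description of the letters and not of a bound site.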

How the data were processed

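The authors deposited log2 signals per probe set; the submitters' processing notes name RMA and the software Affymetrix Expression Console, without versions. Because RMA forces all arrays to a common distribution, a global change in RNA per cell would hardly show. Per the labels' protocols, total RNA was amplified with a kit for very small inputs, and such amplification can distort ratios between dim transcripts.

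Of 34365 probe sets, 23521 carried 1 gene symbol, 1814 several and 9030 none; genes on the latter kinds (such as parts of the chromosome 12 cluster) were not used here. The brightest probe set was kept for each of 22180 genes. With limma 3.58.1 (R 4.3.3; lmFit, eBayes) each day received a mean over its arrays, all 9 arrays sharing 1 estimate of the spread, and the day 7 minus day 4 contrast was tested two-sided, with Benjamini-Hochberg adjustment over all genes. The procedure was run on simulated data drawn with the spread of the fitted model. Those data held no shared culture, gate or array effect, so they cannot show how such effects bear on the calls. The alternatives are given in the closing section.

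The members, the gene lists and the background reference were chosen with earlier results of these data known. Named genes were taken from the 20 largest rises and falls among coding genes without overlap and the 15 largest among genes above background on both days. They also came from up to 6 members per list that passed, fixed anchors and microRNA genes that passed. This rule gave 248 of the genes named, and not every list member, anchor or microRNA gene that it gives is named here. A further set, outside this rule, was named after its values were seen: it numbers 71 of the 319 genes given. Gene order, microRNA and promoter sequences come from RefSeq tables of GRCm38.p6. No build is stated for the array annotation.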

Additional observations from a re-analysis of the deposited data

How the results depend on the processing

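The counts of 1548 genes higher and 1435 lower stayed within 1.5 times under the 6-array fit, the replicate block, other centring, quantile normalisation, a filter on dim genes, averaged probe sets, a variance trend and each left-out array. Leaving out 1 array at a time gave 1176 to 1298 genes higher and 1000 to 1227 lower. A stricter test, against a minimum change of 1.5-fold, gave 378 higher and 218 lower. The fit with the replicate number as a block gave 1487 and 1408. Deviations of same-numbered arrays from their day means correlated across genes at -0.043, -0.00064 and -0.041. Pairs with different numbers lay between -0.029 and 0.069. The labels do not say what the numbers stand for, and these few values cannot decide whether such arrays share a culture or batch. The Dlk1 to Dio3 count, added after the data were seen, ranged from 36 (dim filter, which leaves fewer genes tested) to 46. Of the 289 genes given that passed, 14 lost the call without some array, as given beside them in the report, and 5 under another setting (Arsb and Fgf10 with averaged probe sets, Hoxb2 in the 6-array fit and Cox7a1 and Kdr with the block), and none of the called changes turned sign. Of 81 list medians, 17, all near 0 in the fit reported, changed sign in some setting; the Hox, Sox and forkhead, citric acid cycle, coagulation and both pluripotency lists were among them, and the cause was not tested. The small number of arrays and the background floor limit what dim genes can show.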

Other observations

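Some other lists were measured and had smaller or divided changes. Of 32 actin and contractile genes, 4 rose and 9 fell, with a median change of -0.29, and the fallen count was 5 without day 7 array 3. Cotl1 (+1.63), an actin-binding protein, Lima1 (+1.32), which bundles actin filaments, and Gsn (+1.12), the severing protein gelsolin, rose, while the tropomyosin Tpm1 fell by 0.80. Of 33 genes of the primary cilium and centrosome 6 fell, including Ift57 (-1.12), part of the transport machinery inside cilia, and Rfx3 (-0.72), a regulator of cilium genes.

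Ion channel and neurotransmitter receptor genes rose in 5 of 39 cases (12.8%) and fell in 4 (10.3%). The shares of all genes were 6.98% and 6.47%, and those of genes above background on at least 1 day were 11.4% and 10.6%. Clic6, a chloride channel family member, rose by 2.83 and the ATP-gated channel P2rx4 by 1.52, while Cacna2d2, a calcium channel subunit, fell by 1.47 and Gabrb2 fell as given above. Of 30 chemokine and cytokine receptor genes 3 rose and 6 fell. The receptor Kit rose from a mean of 8.52 to 9.87 and Il22ra1 by 1.34. The chemokine receptor Cxcr4 fell from a mean of 9.35 to 8.18 and the ligand Csf1 by 1.04.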
